A study of Homo sapiens with 79 samples.

Results

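The 1239 cells of the day 60 and day 90 retinal organoids were compared across all genes, out of 1976 cells in the whole series. Organoids are free-floating tissues grown from pluripotent stem cells, and those used here came from human ESC line H9 carrying a CRX-GFP reporter, so that all groups share 1 line and its reporter. Single cells were captured on a Fluidigm C1 HT chip, in which each column of the chip is a sample and each cell within a column has a row barcode. The day 60 chip held 578 cells in 19 columns and the day 90 chip 661 cells in 20 columns, and cells were assigned to a day by their sample title. Both days had the same culture: 10 µM Y27632 for the first 48 hours, then foetal calf serum at 10%, T3 at 40 ng/ml, taurine at 0.1 mM and retinoic acid at 0.5 µM from day 18. Day 200 organoids were run on another 2 chips, named a and b here, and their difference is the only one between chips of the same age.

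The neural retina forms from dividing progenitors that express RAX, SIX6 and PAX6. Ganglion cells, cones, horizontal and amacrine cells leave the cell cycle early, while most rods, the bipolar cells and the Müller glia follow later. The retinal pigment epithelium (RPE), which lies behind the photoreceptors, makes melanin and recycles the visual chromophore.

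There was 1 chip at each day, so age and chip cannot be told apart and no test was made. For each gene the reads of all cells of a chip were summed and expressed as CPM, the share of a chip's reads of named genes scaled to a common total. Differences are log2 ratios of CPM + 1, day 90 over day 60, and a gene is said to have risen or fallen only where it changed at least 2-fold. The lowest, median and highest column show the spread inside a chip, and columns are not replicates of an age. The day 60 columns had 4006623 to 7573162 reads and the day 90 columns 3473832 to 7994770. The median cell had 164292 and 160339 reads, and 3118 and 2880 genes after each cell was thinned to 50000 reads. Mitochondrial ribosomal and transfer RNAs took a median of 6.98% of a cell's reads at day 60 and 4.15% at day 90, and the mitochondrial protein genes were not analysed here. Of the row barcodes, 38 were used on both chips, so a cell is known only by its column and barcode together.

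Both chips carried the defining genes of the retinal label. RAX was at 149.8 (day 60) and 175 CPM (day 90), SIX6 at 161 (day 60) and 112 CPM (day 90) and PAX6 at 468 (day 60) and 389.7 CPM (day 90). None of these progenitor regulators changed 2-fold. CRX itself, the photoreceptor factor behind the reporter, was at 4.74 (day 60) and 10.8 CPM (day 90) and fell short of the mean of 10 CPM required for a gene to be counted.

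Of 10135 genes with a mean of at least 10 CPM, 888 (8.76%) rose and 623 (6.15%) fell, 1511 (14.9%) together. Between the day 200 chips 971 of 10292 genes (9.43%) differed as much, 521 (5.06%) in the direction of chip b and 450 (4.37%) in that of chip a. Of the 1511 genes, 350.0 (23.2%) also differed 2-fold between the day 200 chips. The median gene differed by 0.0047 on the log2 scale. A rise of at least 4-fold was seen in 211 genes and a fall of that size in 94. The columns of the days did not overlap for 26 genes higher at day 90 (0.257%) and 30 lower (0.296%), some of them by less than 2-fold, against 3 (0.0291%) and 1 (0.00972%) between the day 200 chips. In 141 of the rising and 113 of the falling genes, no more than 10 cells held 50% of the reads on the chip where the gene was higher.

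**Figure D1:**
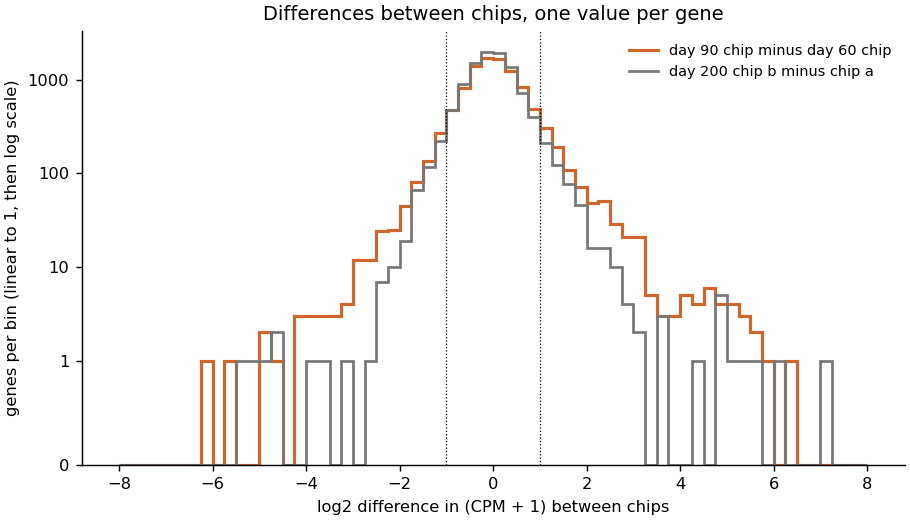
Number of genes (vertical axis, linear to 1 and logarithmic above) by log2 difference in CPM + 1 (horizontal axis) for day 90 minus day 60 and for the day 200 chips. The dotted lines mark 2-fold; 14.9% of genes lay outside them between the days and 9.43% between the chips of the same age.

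Photoreceptor genes rose. In a sum over a chip, more cells of a type and more RNA per cell cannot be told apart. All 7 counted genes of the cone phototransduction list rose, with a median difference of 4.27, and the same list differed by -1.44 between the day 200 chips. PDE6H, the inhibitory subunit of the cone phosphodiesterase (chr12:14973042-14981865, GRCh38), was at 16 CPM at day 60 (counting interval 15.2 to 16.8) and 533 CPM at day 90 (529 to 538), a difference of 4.98. Its columns ran from 0 to 44.9 CPM (median 11.4) at day 60 and from 221 to 1547 CPM (median 436) at day 90, so that every day 90 column lay above every day 60 column. ARR3, the cone arrestin, went from 6.05 to 164 CPM (4.55), and the columns ran from 0 to 23.7 CPM (median 0.578) at day 60 and from 8.13 to 490.4 CPM (median 119.6) at day 90. The cone transducin subunits GNGT2 and GNB3 rose from 5.79 to 129.9 CPM and from 59.6 to 280.5 CPM. The log2 difference of GNGT2 was 4.27, or 5.29 without day 60 column 14. GUCA1A, which activates guanylate cyclase when calcium is low, KCNV2, a potassium channel subunit of photoreceptors, and CNGB3, a subunit of the cone channel gated by cyclic GMP, rose with no overlap between columns. KCNV2 was at 10.9 (day 60) and 155 CPM (day 90). CNGB3 had no read at day 60 and 41.4 CPM at day 90, 1447-fold higher when 3 reads on the chip are taken as the floor. That floor covers counting error only, and 12 cells held 50% of the day 90 reads of CNGB3. The blue cone opsin OPN1SW was too low to count, at 3.53 (day 60) and 8.88 CPM (day 90), and 50% of its day 90 reads came from 1 cell.

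Rod genes rose less uniformly. Of 6 counted members of the rod phototransduction list 4 rose. GNAT1, the rod transducin alpha subunit (chr3:50191610-50197696), had no read in any day 60 cell and 81.3 CPM at day 90, at least 2843-fold higher. The day 90 columns ran from 0 to 291 CPM (median 65.9), with 1 of the 20 at 0 as at day 60. GNGT1, its gamma subunit, rose from 4.46 to 193 CPM (log2 5.15, or 6.34 without day 60 column 15), CNGB1, the rod channel subunit, from 4.84 to 28.6 CPM (log2 2.34, or 3.07 without day 60 column 5), and RCVRN, the calcium sensor recoverin, from 53.6 to 368 CPM. The span of GNGT1 holds TFPI2 on the other strand, which rose from 12 to 225 CPM, and the library kit does not mark strand. Whether the 2 genes share reads was not tested. Between the day 200 chips GNGT1 went from 25.6 (chip a) to 69 CPM (chip b) and GNAT1 from 178 to 54.5 CPM. PDE6B, a catalytic subunit of the rod phosphodiesterase, was at 24.7 (day 60) and 34.2 CPM (day 90) and SLC24A1, the rod exchanger, at 11.4 (day 60) and 21.9 CPM (day 90), neither of them 2-fold. NRL, the factor that commits photoreceptors to the rod fate, rose from 7.01 to 73.7 CPM (3.22). Reads of NRL were present in 3.63% of day 60 cells and 21.1% of day 90 cells at 50000 reads per cell, and at least 5 reads in 2.25% and 11.6%. NR2E3, which acts with NRL, stayed below the minimum at 1.66 (day 60) and 11.2 CPM (day 90).

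Genes of the outer segment and of photoreceptor upkeep followed, 12 of 14 rising with a median of 2.53. RP1, a protein of the outer segment axoneme, had no read at day 60 and 60.9 CPM at day 90. PRPH2, which shapes disc rims, rose from 3.15 to 60.7 CPM (log2 3.89, or 4.93 without day 60 column 6), ABCA4, the disc flippase, from 6.72 to 66.1 CPM, and RD3, a regulator of guanylate cyclase, from 8.48 to 96.5 CPM without overlap of columns. PDC, or phosducin, which binds transducin subunits, went from 48.6 to 298 CPM, and its columns did not overlap either. UNC119 and CRB1 did not change 2-fold. Among photoreceptor regulators 5 of 9 rose. OTX2, needed for photoreceptor and RPE fate (chr14:56799905-56816693), was at 100.3 (day 60) and 514 CPM (day 90), with reads in 20.2% and 68.1% of cells. RXRG, a nuclear receptor of cones, rose from 7.35 to 39.7 CPM, PRDM1, which holds photoreceptor precursors from the bipolar fate, from 6.39 to 33.1 CPM, and LHX4 from 8.34 to 66.5 CPM. NEUROD1 (191 to 183 CPM), THRB (37.7 to 38.4 CPM), RORB and MEF2C differed less than 2-fold. At the synapse, SV2B, CPLX4 and STX3, of transmitter release, and the vesicular glutamate transporter SLC17A7 rose, from 8.01 to 77.6 CPM, 9.00 to 79.5 CPM, 52.5 to 248 CPM and 25 to 119 CPM, whereas the general synaptic genes SYP, SNAP25 and SYT1 differed by -0.04, -0.10 and 0.24. In all, 4 of 13 counted synapse genes rose and SYT4 alone fell.

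**Figure D2:**
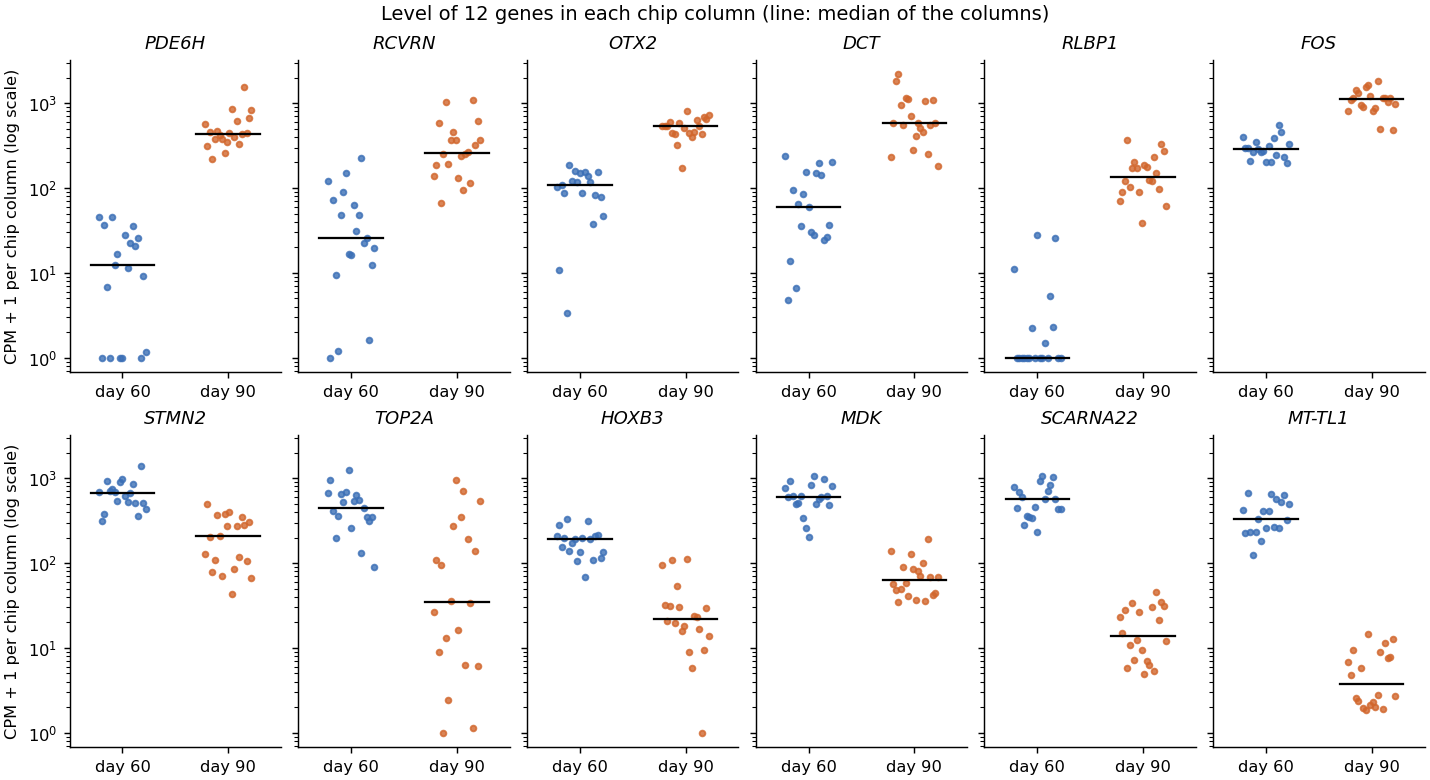
CPM + 1 of 12 genes (vertical axis, logarithmic) in each of the 19 day 60 and 20 day 90 chip columns (1 point per column; the line is their median). PDE6H, RLBP1, MDK, SCARNA22 and MT-TL1 have no overlap between days, while TOP2A at day 90 spans from 0 to 954 CPM.

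Promoter sequences are shown for members of these lists that hold the core motif of OTX2 and CRX, because both factors act on photoreceptor genes. The motif searched was TAATCC on either strand in the 250 bases before and 50 after the start of each gene, from RefSeq on GRCh38.p14. Of 27 counted genes in the 3 photoreceptor lists 19 had a promoter in the table, and 5 of these (26.3%) held the motif, against 1744 of 27305 promoters of all genes (6.39%) and 325 of 7850 (4.14%) promoters of the counted genes. Each stretch of 60 bases runs 5′ to 3′ on the gene's strand, with the motif in capitals.
GUCA1A, chr6:42173249-42173308, plus strand: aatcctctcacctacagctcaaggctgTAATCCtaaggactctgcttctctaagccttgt
MPP4, chr2:201698686-201698745, minus strand: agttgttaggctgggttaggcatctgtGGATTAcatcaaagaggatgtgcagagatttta
EYS, chr6:65707207-65707266, minus strand: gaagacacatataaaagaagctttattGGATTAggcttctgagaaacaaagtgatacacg
CNGB1, chr16:57971140-57971199, minus strand: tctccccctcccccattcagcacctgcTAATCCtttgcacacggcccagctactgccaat
CRB1, chr1:197268020-197268079, plus strand: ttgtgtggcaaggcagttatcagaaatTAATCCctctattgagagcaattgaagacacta
MPP4, a scaffold of photoreceptor terminals, rose from 14.5 to 98.2 CPM, EYS, an extracellular protein of photoreceptors, from 9.71 to 54.5 CPM, and GUCA1A from 29.8 to 169 CPM. CRB1, with the same letters, was at 104 (day 60) and 145 CPM (day 90) and did not change 2-fold. A match is a description of these letters, and the binding of a factor was not measured.

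Pigment and RPE genes also rose. All 7 counted pigment genes were higher, with a median difference of 3.08 against -0.45 between the day 200 chips. Without the cells that carried RPE markers, counted per cell as described with the marker lists, the median was 0.29. DCT, PMEL and TYRP1 are among the markers that chose those cells, nearly all of them from day 90, so a lower value was built into that choice. DCT, a melanin synthesis enzyme (chr13:94436811-94479682), was at 85.9 (day 60) and 741 CPM (day 90), and the columns ran from 3.75 to 235 CPM (median 58.1) at day 60 and from 182 to 2188 CPM (median 584) at day 90. TYRP1 rose from 5.42 to 159.7 CPM, TYR, the enzyme that starts melanin synthesis, from 4.27 to 43.7 CPM, PMEL, the melanosome matrix protein, from 53.8 to 482 CPM, and MITF, the master regulator of pigment cells, from 21.7 to 109 CPM. The columns of TYRP1 reached down to 0.288 CPM at day 90, below the highest day 60 column of 25.4 CPM. The motif CATGTG, searched on both strands, the E-box form to which MITF binds, was present in 3 of 6 pigment promoters, against 3065 of 27305 of all genes (11.2%) and 475 of 7850 counted genes (6.05%). All 3 pigment genes with it had risen. All 3 HOX genes with a promoter in the table, which fell, held it too. The related E-box CACGTG was in none of the 6 pigment promoters and in 7.43% of all. Where a promoter held the motif more than once, as in GUCA1A, TYR, TYRP1 and GPR143, 1 match is set in capitals.
TYR, chr11:89177836-89177895, plus strand: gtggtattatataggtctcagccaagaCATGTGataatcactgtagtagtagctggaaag
TYRP1, chr9:12693347-12693406, plus strand: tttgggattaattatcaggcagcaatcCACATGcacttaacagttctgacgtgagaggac
GPR143, chrX:9765848-9765907, minus strand: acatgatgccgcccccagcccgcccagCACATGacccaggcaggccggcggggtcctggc
Of 16 counted RPE visual cycle and transport genes 10 rose and none fell, with a median of 2.10, or 0.61 without those cells. RLBP1, the retinal-binding protein of RPE and Müller glia (chr15:89209869-89221614), was at 3.39 (day 60) and 156 CPM (day 90), and every day 90 column was above every day 60 column. BEST1, a chloride channel of RPE, rose from 6.88 to 186 CPM, SERPINF1, the neurotrophic factor PEDF, from 68.1 to 488 CPM, and LRAT, which esterifies retinol, from 3.94 to 28.5 CPM. RPE65 itself was too low to count, at 0.744 (day 60) and 5.46 CPM (day 90). COL8A1, a short-chain collagen, and RNASE1, a secreted ribonuclease, were among the 10 largest rises, from 7.59 to 304 CPM and from 3.45 to 221 CPM. The log2 difference of RNASE1 was 5.64, or 6.70 without day 60 column 7. TTR, the thyroxine carrier, rose from 11.5 to 296 CPM, but 3 cells held 50% of its day 90 reads. The retinol carrier RBP4 and the retinol receptor STRA6 differed by 0.01 and 0.18.

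Müller glia genes were split. The homeostasis list rose in 10 of 14 members, with a median of 1.60, or 1.05 without the cells that carried RPE markers. RLBP1 and AQP1, a water channel, are in both the glial and the RPE list. Other rising members were FRZB, a secreted Wnt antagonist, from 21 to 116 CPM, CA2, carbonic anhydrase, from 31.3 to 121 CPM, and CRYAB, a small heat shock protein, from 68.4 to 316 CPM, with 50% of the day 90 reads of CRYAB in 9 cells. GLUL, glutamine synthetase, was at 260.4 (day 60) and 284 CPM (day 90), and SLC1A3, the glial glutamate transporter, at 38.2 (day 60) and 25.9 CPM (day 90), neither of them 2-fold. The water channel AQP4 and the channel KCNJ10 of mature glia were under 3 CPM on both chips. GFAP was at 0.868 (day 60) and 19.7 CPM (day 90), with 50% of the day 90 reads in 1 cell, and its log2 difference of 3.47 came to 1.57 without day 90 column 11. Of the 10 genes by which the study defined its Müller cluster 4 rose, SPP1 (osteopontin, 224 to 665 CPM), TF (transferrin, 4.34 to 48.7 CPM), GPX3 and WIF1, and SFRP2 fell from 462 to 183 CPM. VIM and DKK3 were nearly 2-fold higher at 0.96 and 0.96, and HES1 was at -0.41. These lists were chosen by the study on the same cells and are no independent evidence of a direction. Late progenitor factors divided likewise: FABP7, a fatty acid binding protein of radial glia, rose from 5.48 to 119 CPM and NFIB and NFIX from 69.1 to 202 CPM and 4.57 to 19.3 CPM, whereas SOX8 and NFIA differed by -0.11 and 0.27.

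Genes of dividing cells fell. Of 17 counted G2 and M phase genes 13 fell and none rose, with a median of -1.60, and 8 of 16 S phase genes fell, with a median of -1.04. CDT1, a licensing factor among these, was at -0.95 without day 60 column 9. The G2 and M list also differed between the day 200 chips, by -1.17. AURKB, the kinase of the chromosomal passenger complex, went from 36 to 4.29 CPM, CDK1 from 65.1 to 18.1 CPM, and RRM2, the ribonucleotide reductase subunit, from 22.3 to 2.65 CPM. Between the day 200 chips AURKB differed by -2.84 and RRM2 by -4.81 (27 CPM in chip a, 0 CPM in chip b). BUB1 differed there by -0.47 and the S phase list by -0.23. TOP2A, which untangles DNA, was at 481 (day 60) and 160.2 CPM (day 90), and the columns ran from 89 to 1232 CPM (median 448) at day 60 and from 0 to 954 CPM (median 33.7) at day 90. Of the 20 day 90 columns 9 lay above the lowest day 60 column, and 5 cells held 50% of its day 90 reads against 16 cells at day 60. PCNA, which also serves in repair, and RFC4 differed by 0.03 and 0.16. All 10 genes of the study's mitotic list, to which TOP2A belongs, fell, among them HIST1H4C, a replication histone, from 1194 to 259 CPM. Among 11 counted histone genes with names starting in HIST it alone fell, 1 rose and the median difference was 0.46.

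Transcription factors of retinal progenitors changed about as often as all genes. Of 16 counted regulators MITF rose and ZIC1 fell (105 to 35.6 CPM), near the share of 14.9% of all counted genes. SOX2 (-0.69), NR2F1 (-0.83), LHX2 (0.48) and SOX9 (0.45) were within 2-fold. ATOH7, which gives progenitors competence for the ganglion cell fate, fell from 27.2 to 6.23 CPM, and NEUROD4, of bipolar and photoreceptor precursors, rose from 30.4 to 132 CPM. In the Notch pathway HES4 fell from 71.1 to 13.8 CPM, HEY1 and NOTCH2 rose, and NOTCH1, DLL3 and JAG1 stayed within 2-fold. Of 9 counted genes of early developmental timing 2 fell, IGF2BP1 from 92.7 to 22.1 CPM and HMGA2, a target of let-7, from 39.1 to 9.74 CPM. LIN28B, which blocks let-7, was below the minimum at 14.7 (day 60) and 1.94 CPM (day 90).

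Ganglion cell and axon genes fell in 6 of 11 counted members and rose in 2. POU4F2, which drives ganglion cell differentiation, had a mean just under the minimum, at 19.2 CPM at day 60 and no read at day 90. ISL1, its partner, fell from 19.4 to 4.17 CPM, EBF1 from 34.7 to 5.62 CPM and ELAVL2, a neuronal RNA-binding protein, from 88.3 to 16.9 CPM. NEFL and NEFM, the neurofilament chains, fell from 152 to 21.5 CPM and 173 to 29.5 CPM, and STMN2, of growing axons, from 671 to 217 CPM. RBPMS, an RNA-binding protein used as a ganglion cell marker, went the other way, from 15.2 to 47.8 CPM. Among genes of other neurons, TRPM1, the channel of ON bipolar cells, had no read at day 60 and 40.4 CPM at day 90, and VSX1, of bipolar cells, rose from 15.2 to 116 CPM. Of 8 horizontal and amacrine genes 4 rose, PROX1, CALB1, GAD1 and TFAP2A (GAD1 from 13 to 43.7 CPM), and PAX2, of the optic stalk, fell from 27.1 to 5.96 CPM. The column median of CALB1 did not rise (4.70 CPM at day 60, 4.55 CPM at day 90). Its reads were in 14 day 60 and 13 day 90 columns, with a highest day 90 column of 89.1 CPM. The column medians of PROX1 (20.7 to 48.2 CPM), GAD1 (7.83 to 38.7 CPM) and TFAP2A (0 to 12.5 CPM) were higher at day 90. PROX1 had reads in 15.4% of day 60 cells and 17.9% of day 90 cells. The astrocyte and oligodendrocyte list had 5 counted genes, of which GFAP rose and PAX2 fell. In the endothelial list KDR rose and CLDN5 fell, and no other member was counted. DNMT3B, the only counted gene of the pluripotency list, differed by 0.09.

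HOX genes, which are used in the hindbrain, spinal cord and trunk and not in the forebrain from which the eye forms, were another falling group. All 13 counted HOX genes fell, with a median of -2.64. Between the day 200 chips the list differed by 1.79, higher in chip b. HOXB9 (chr17:48621156-48626358) went from 50.2 to 2.28 CPM, HOXA5 (chr7:27141052-27143681) from 85.1 to 6.74 CPM, and HOXB3 from 180.2 to 31.9 CPM. HOXB6 fell from 47.1 to 2.76 CPM with no overlap between columns. HOXB3 had reads in 43.3% of day 60 cells and 10.2% of day 90 cells, and at least 5 reads in 31% and 5.50%. HOXB5 and the antisense transcript HOXB-AS3 (chr17:48549630-48606414) fell from 249 to 39.1 CPM and from 256 to 25 CPM. HOXB3, HOXB4, HOXB5 and HOXB6 all overlap HOXB-AS3 on the other strand. The library kit does not mark strand, so where they overlap their reads and those of HOXB-AS3 cannot be told apart. Of 4 counted genes of hindbrain, spinal and autonomic neurons, LHX4, also a photoreceptor gene, rose, and PRPH and LHX9 differed by -0.93 and 0.95.

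**Figure D3:**
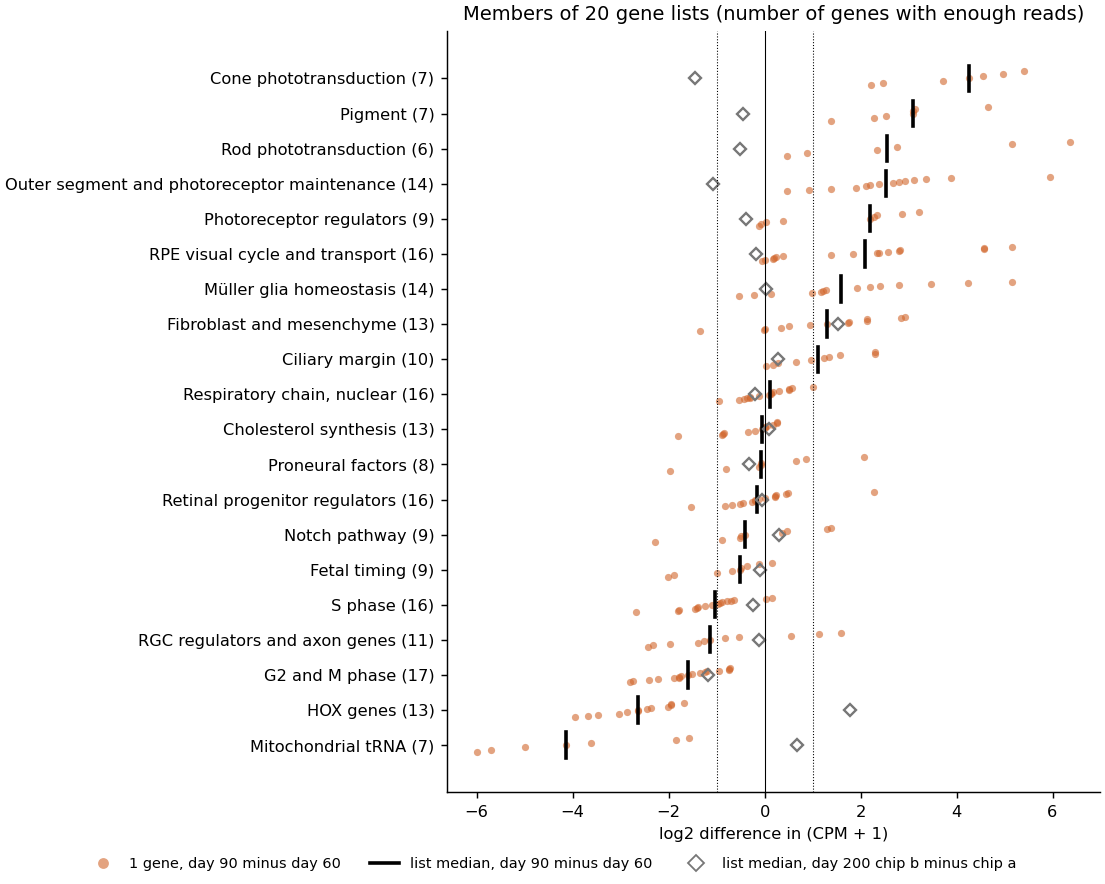
Log2 difference of each counted member of 20 gene lists (points, day 90 minus day 60), with the list median (black bar) and the median of the same members between the day 200 chips (diamond). Photoreceptor, pigment and RPE lists lie to the right, HOX genes (-2.64) and mitochondrial tRNAs (-4.13) to the far left.

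Genes of mesenchyme rose in 7 of 13 counted members, with a median of 1.29, but the list differed as much between the day 200 chips (1.54). COL3A1 and COL1A2, fibrillar collagens, rose from 179.8 to 1299 CPM and 289 to 1261 CPM, and LUM, a corneal and stromal proteoglycan, from 7.02 to 59.7 CPM. PRRX1, a factor of limb and head mesenchyme, fell from 17.5 to 6.24 CPM. TIMP1 fell from 701 to 190.5 CPM, but 1 cell held 50% of its day 60 reads, its difference came to -0.56 without day 60 column 15, and the median column was at 187 CPM at day 60 and 173 CPM at day 90. In the ciliary margin list, of the rim between retina and iris, 5 of 10 rose, among them GJA1, connexin 43 (39.9 to 199.9 CPM), and BMP7 (25.4 to 129 CPM). Without the cells that carried RPE markers the list median went from 1.10 to 0.41 and BMP7 turned to -1.02. The lens crystallin list and the microglia and blood list had no member with enough reads.

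All 9 counted members of a skeletal muscle list, added after the data were seen, rose. TTN, the giant sarcomere protein, was present at both days, at 94.3 (day 60) and 227 CPM (day 90), with reads in 31.7% and 33.6% of cells. Day 60 had no read of MYL1, a myosin light chain, or TRDN, triadin. MYL1 was at 46.8 CPM at day 90, with a column median of 0 and a highest column of 755 CPM. Without that column, day 90 column 13, the differences of MYL1, TRDN, TNNC2, TNNT3 and TTN came to 2.03, 1.56, 1.80, 0.64 and 0.54. In 6 day 90 cells, from 3 columns, the list took at least 5000 CPM, up to 85103 CPM in the highest cell, whereas the highest day 60 cell had 3070 CPM. When the 17 day 90 cells with reads of at least 5 muscle genes were left out, the median of the list turned to -0.20, and TTN and TNNT3 turned to -0.53 and -0.58. These cells were chosen by reads of the list itself and came from day 90 only, so a lower value was built into the choice.

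Reads of MYL1 were also found in neighbouring cells of the same chip column. In the column of the cell with most MYL1 reads (3433), 22 of its 35 neighbours (62.9%) had a MYL1 read, with a median of 1 read, against 6 of 625 cells (0.96%) in the other columns. MYL1 had the highest share of the muscle genes compared there, followed by TNNT3 (54.3% against 1.44%). The lowest were MYH8 (28.6% against 1.12%) and CKM (14.3% against 0.8%), both with a median of 0 reads in the neighbours. For RNASE1, 32.1% of the other cells had a read in day 90 columns that held a cell with at least 1000 CPM, and 6.33% in columns that held none. For MGP, matrix Gla protein, the shares were 47.1% and 5.88% at day 60. Of 13 such comparisons of columns with and without a rich cell, over 8 genes, the share was higher with it in 11 and lower in 2, TTR (2.02% against 3.78%) and GNGT1 (0% against 1.84%), both at day 60.

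Marker lists of the study's 9 clusters were then counted per cell. They were drawn from these same cells together with the day 200 cells, so a share says nothing independent of them. A cell was said to carry a list when at least 5 of its 10 genes had a read at 50000 reads per cell, which left out 6 shallow day 90 cells and kept 578 and 655 cells. Such a class is a range and not a cell type. In the sums over chips, all 10 genes of the cone list, 9 of the rod list and 10 of the RPE list rose, 6 of the RGC list fell, 7 of the ECM list rose and 1 fell, 4 of 9 counted genes of the cluster 7 list rose, and 1 of the cluster 8 list rose and 2 fell. Intervals are exact binomial at 95% and, as for the CPM, cover counting error only. The cone list was carried by 6.06% (4.25 to 8.32%, 35 cells) of day 60 cells and 41.2% (37.4 to 45.1%, 270 cells) of day 90 cells, a difference of 35.2 percentage points (30.8 to 39.3). The rod list went from 3.46% (2.13 to 5.29%, 20 cells) to 26.3% (22.9 to 29.8%, 172 cells) and the RPE list from 1.56% (0.714 to 2.94%, 9 cells) to 28.5% (25.1 to 32.2%, 187 cells). The RGC list went down from 39.6% (35.6 to 43.7%, 229 cells) to 10.1% (7.88 to 12.6%, 66 cells) and the mitotic list from 29.4% (25.7 to 33.3%, 170 cells) to 7.79% (5.85 to 10.1%, 51 cells). Every day 60 column held fewer cone list carriers than every day 90 column, with a highest share of 11.1% against a lowest of 23.3%. The Müller list was carried by 66.8% (62.8 to 70.6%, 386 cells) and 72.8% (69.2 to 76.2%, 477 cells), a difference of 6.04 percentage points (0.914 to 11.2). That difference was 1.05 (-5.77 to 7.97) among cells with at least 150000 reads and at most 10% mitochondrial reads, 3.61 (-0.602 to 7.87) with 4 of 10 genes and 4.17 (-1.18 to 9.51) at 25000 reads, and these intervals include 0.

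With 5 reads needed for a gene to count, the direction was the same for 8 of the 9 lists. The cone shares became 4.15% and 24.3%, the RPE shares 0.865% and 14.5%, the RGC shares 27.3% and 4.73%, and the mitotic shares 16.3% and 3.97%. The Müller shares became 50.3% and 49.6%, with the sign of their difference turned. Cells with 4 or 5 genes of the cone list, next to the limit, numbered 28 and 110. Whether reads from neighbouring cells have a part in these shares was not tested.

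**Figure D4:**
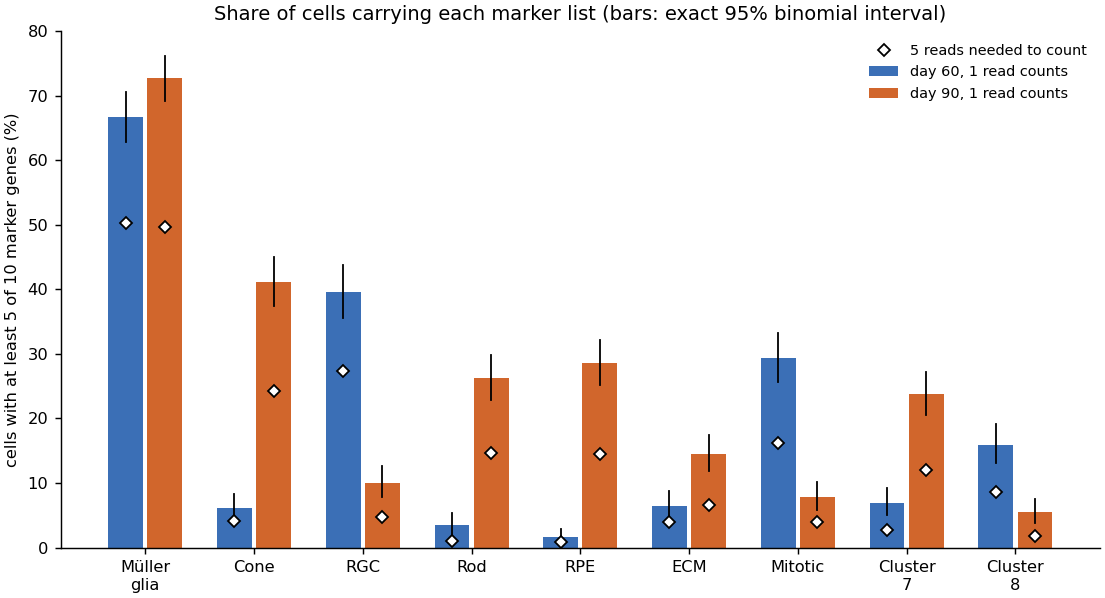
Percentage of cells that carry at least 5 of 10 marker genes of each cluster list at day 60 (578 cells) and day 90 (655 cells), with exact 95% binomial intervals. Diamonds give the share when 5 reads are needed for a gene to count; the cone and RPE shares at day 90 then come to 24.3% and 14.5%.

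Cells that carried several lists became more frequent. Exactly 1 list was carried by 38.9% of day 60 cells and 25.0% of day 90 cells, 3 lists by 17.0% and 25.0%, and 4 lists by 2.94% and 11.8%. The cone and RPE lists were carried together by 0 of 578 day 60 cells (a floor of 3 cells is a share of 0.519%) and by 60 day 90 cells. The Müller and cone lists were carried together by 14 and 170 cells. Other pairs became rarer, with 124 and 45 cells for the Müller and mitotic lists, 116 and 41 for the Müller and RGC lists, and 60 and 4 for the RGC and mitotic lists. No doublet caller was run and all cells were kept.

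When the 187 day 90 cells and 9 day 60 cells that carried the RPE list were left out, 792 genes rose and 615 fell. The differences of PMEL (-1.54), TYR (-0.63), BMP7 (-1.02) and CSF1R (-1.06, a gene under the minimum) then turned to lower at day 90. PMEL is itself among the markers that chose these cells. The median of the rod phototransduction list came to 1.90 and that of the cone phototransduction list to 3.89, while the HOX median was -2.45.

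Within cells that carried a list the same comparison was made over all genes for 8 lists (the RPE list had too few day 60 cells). Within the 386 and 477 carriers of the Müller list 926 genes (9.16%) rose and 668 (6.6%) fell. Among these cells RLBP1 was at 1.33 (day 60) and 150.4 CPM (day 90), FABP7 at 5.44 (day 60) and 115 CPM (day 90), CRABP1 at 806 (day 60) and 126 CPM (day 90) and HOXB3 at 184 (day 60) and 35.8 CPM (day 90). The cone gene GNGT2, with 0.578 (day 60) and 96.9 CPM (day 90), and GNAT1, with 0 (day 60) and 51.6 CPM (day 90), were among the 3 largest rises inside the Müller list carriers, many of which carried other lists too. Within the 35 and 270 carriers of the cone list 1602 genes (16.4%) rose and 1157 (11.9%) fell. The RGC list was carried as well by 26 of these 35 day 60 cells and by 33 of the 270 day 90 cells. OTX2 there was at 666 (day 60) and 783 CPM (day 90), within 2-fold, whereas NRL was at 37.5 (day 60) and 152 CPM (day 90), GNAT1 at 0 (day 60) and 184 CPM (day 90) and RP1 at 0 (day 60) and 139.5 CPM (day 90). TFPI2, a protease inhibitor, was also among the 3 largest rises in them, at 0.139 (day 60) and 176 CPM (day 90). Its span lies within that of GNGT1, as given above. Within the 229 and 66 carriers of the RGC list 1350 genes (13.4%) rose and 1026 (10.2%) fell. ISL1 stayed there within 2-fold at 43.7 (day 60) and 35.4 CPM (day 90), and POU4F2 went from 37.8 CPM to no read. FABP3, a fatty acid binding protein, fell there from 274 to 7.30 CPM. Within the 170 and 51 carriers of the mitotic list 1519 genes (15.2%) rose and 1434 (14.4%) fell. HOXA5, at 62.5 (day 60) and 0 CPM (day 90), was among the 3 largest falls, and RNASE1, at 1.71 (day 60) and 273 CPM (day 90), was the largest rise. The share of genes past 2-fold was lowest for the Müller list, which had most cells at both days. Within the 20 and 172 carriers of the rod list 1887 genes (19.5%) rose and 1374 (14.2%) fell. For the ECM list the shares were 17.6% and 14.9%, for the cluster 7 list 16% and 15.4%, and for the cluster 8 list 16.5% and 16.7%.

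Of 1655 genes found in at least 50% of the cells of either day, 77 rose and 142 fell (13.2% together). Among the largest rises of such genes were DCT, SERPINF1 and OTX2, and B2M, the light chain of MHC class I, from 8.71 to 75.4 CPM with reads in 14.7% and 51.8% of cells, and PCBP4, an RNA-binding protein, from 25.1 to 147 CPM. Genes with no overlap between columns, named here after their values were seen, included MDK, the growth factor midkine, which fell from 622 to 74.7 CPM (chr11:46380756-46383837). The columns ran from 200.1 to 1061 CPM (median 598) at day 60 and from 33.3 to 189 CPM (median 62.9) at day 90. CRABP1, which binds retinoic acid, fell from 669 to 98.8 CPM, TUBA1A, the tubulin of young neurons, from 2004 to 670.1 CPM, and NOVA1, a neuronal splicing factor, from 126 to 30.9 CPM. GPNMB, a melanosome and lysosome glycoprotein, rose from 6.28 to 153 CPM, LGALS3, galectin 3, from 19.2 to 131 CPM, and LGMN, a lysosomal protease, from 19.5 to 109 CPM. EEF1A1, an elongation factor, rose without overlap from 216 to 584 CPM and RPL7A from 254 to 960.4 CPM, and both have near-identical pseudogene copies. Of 74 counted ribosomal protein genes 6 rose and 3 fell, near the 8.76% of all genes that rose. By columns they stood out more, with 4 of the 74 higher at day 90 without overlap, against 0.257% of all counted genes.

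The 3 largest falls among genes with at least 50 CPM at day 60 were in mitochondrial tRNAs. MT-TL1, a mitochondrial leucine tRNA (chrM:3230-3304), was at 381 (day 60) and 4.96 CPM (day 90), a difference of -6.00. Its columns ran from 124 to 666 CPM (median 326) at day 60 and from 0.879 to 13.6 CPM (median 2.79) at day 90. MT-TV, MT-TS2 and MT-TP fell likewise, with log2 differences of -5.70, -4.99 and -3.62. All 7 counted mitochondrial tRNAs fell, and their sum was 1247 CPM at day 60, 74.9 at day 90, and 67.2 and 134 on the day 200 chips. Of 7 counted small nuclear, nucleolar and Cajal body RNAs 6 fell, and the sum of all 7 went from 1102 to 240.0 CPM. SCARNA22 (chr4:1974636-1974760), a Cajal body RNA, went from 589 to 18.6 CPM. SNORA12 rose, from 0.0763 to 36.2 CPM, but it was at 40.7 CPM on day 200 chip a and 0 CPM on chip b. That gap of -5.38 was larger than its difference of 5.11 between the days. Of 65 counted processed pseudogenes 38 (58.5%) fell and 1 rose, with sums of 5538 and 3003 CPM, against 494 of 9322 protein coding genes (5.3%) that fell. The median of these pseudogenes was -1.12 between the days and 1.02 between the day 200 chips. Chips of the same age thus differed about as much, with sums of 2138 (chip a) and 3692 CPM (chip b). HSP90AB3P, a copy of HSP90AB1, fell from 19.5 to 4.86 CPM. How reads are split between a gene and such a copy is uncertain. MT-TL1 and MT-TV were among the 8 lowest differences within the carriers of each of the 8 lists. In the sums of both short RNA classes the day 60 chip stood apart from the other 3 chips, including the day 200 chips. Mitochondrial ribosomal RNA fell short of 2-fold, with MT-RNR2, which ends at the base before MT-TL1, at 59644 (day 60) and 35645 CPM (day 90) and no overlap between columns. MALAT1 and NEAT1, nuclear noncoding RNAs, differed by 0.16 and 0.21.

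**Figure D5:**
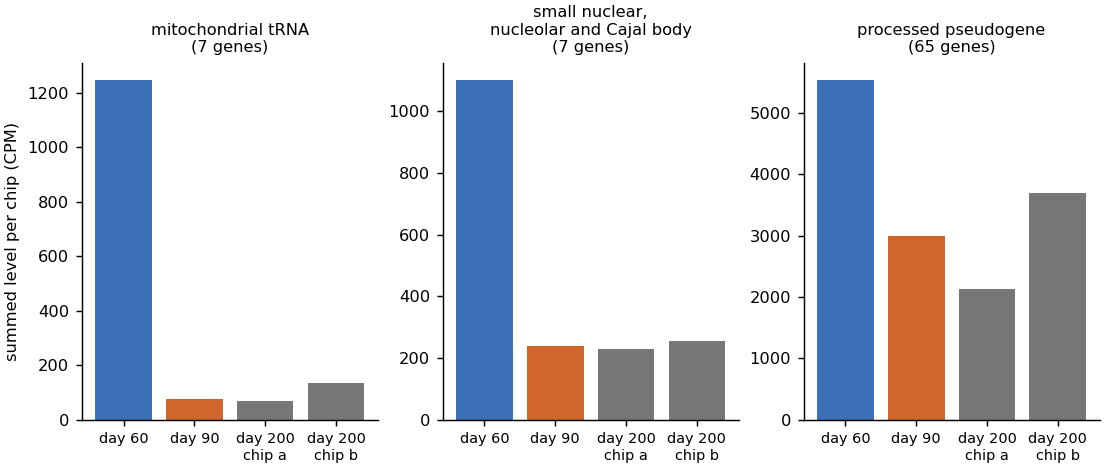
Summed CPM per chip (vertical axes, linear from 0) of mitochondrial tRNAs, of small nuclear, nucleolar and Cajal body RNAs and of processed pseudogenes, with 1 bar per chip and no error bar because each bar is 1 chip. Mitochondrial tRNAs took 1247 CPM at day 60 and between 67.2 and 134 CPM on the other chips.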

How the data were processed

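Full-length cDNA of single cells was sequenced as 75-base read pairs, and the deposited table holds raw counts of reads per gene and cell, which the authors made with Trimmomatic 0.33, STAR 2.4.0 and HTSeq 0.6 on GRCh38.p7. HTSeq was run in union mode with a minimum alignment quality, and no strand setting is given in the sources used here. Reads carry no molecular identifiers, so intervals and floors cover counting error only. The study set a lower read minimum for day 60 cells and a looser spike-in limit for day 90 cells, which had more spike-in RNA. As deposited, 229 day 60 cells (39.6%) and 290 day 90 cells (43.9%) lay below 150000 reads. The table holds the 1976 cells of the study's combined clustering.

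Counts were summed per chip over 24156 of 24415 rows, leaving out GFP-Spike (0 reads on either chip), 166 rows named by a bare number (0.0423% and 0.0641% of reads) and 92 Ensembl identifiers. CPM intervals are exact Poisson, share intervals exact Clopper-Pearson and differences of shares Newcombe, all at 95%. With 1 chip per day no test was made, and columns were not used as replicates. Genes needed a mean of 10 CPM to be counted, and the pseudocount was 1 CPM. A gene without reads was set against a floor of 3 reads per chip (0.0286 CPM at day 60). Genes were named if they had the 10 highest or lowest differences at 50 CPM or more and with a read in 10% of cells, or the 5 highest or lowest among genes in 50% of cells. Up to 4 members of a list with the largest differences and its highest member were named too, with the 3 highest and lowest within list carriers and genes whose promoters are shown. Other members are given to complete a list, chosen after their values were seen. Members and lists were chosen with earlier results of these data known. Positions are from GENCODE on GRCh38 by symbol and promoters from RefSeq. On counts simulated with counting error only, 200 of 200 changed genes were recovered. No spread between cells, columns or chips was simulated, so recovery was built in and says nothing of differences between chips. A few genes are not reported here. Alternatives covered the pseudocount, the minimum, TMM factors (edgeR 4.0.16, R 4.3.3), thinning, cell filters and leaving out each column. Python 3.11.15, numpy 2.4.6, pandas 2.3.3, scipy 1.17.1, statsmodels 0.14.6 and matplotlib 3.10.9 were used.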

Additional observations from a re-analysis of the deposited data

Results flagged for a closer look

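Reads in rows that carry no gene name were outside the comparisons. There were 166 rows named by a bare number, and they took 0.0641% of reads at day 90 and 0.0423% at day 60, with 0 reads on either day 200 chip. What these rows stand for is not given in the sources used here.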

How the results depend on the processing

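The counts of genes higher and lower at day 90 (888 and 623) became 485 and 309 with a pseudocount of 10 CPM, 2821 and 1943 with no minimum, and 244 and 189 with a minimum of 50 CPM, where fewer genes were counted. Under the other settings run, TMM factors included, they stayed within 1.5 times, and with 1 column left out they ran from 869 to 911 and from 608 to 647. A change of sign was counted only for differences that were at least 2-fold in the main setting. Of the differences of named genes under the alternatives, 1773 were within the spread of columns, 51 moved by more and 6 changed sign in that sense. Without the RPE list carriers these were PMEL (-1.54), TYR (-0.63), BMP7 (-1.02) and CSF1R (-1.06). Without the carriers of 5 muscle genes, a setting chosen after seeing the data, they were TNNT3 (-0.58) and TTN (-0.53), and the muscle list median was -0.20.

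Differences in the shares of list carriers, in percentage points, kept their sign in every setting run except for the Müller list with 5 reads per gene (-0.728). With 4 of 10 genes they were Cone 40.6, Rod 32.2, RPE 31, Mitotic -29.3. With 6 of 10 genes they were Cone 28.7, RGC -21.6, Rod 17.1, RPE 22.3, Mitotic -16.1, Cluster 7 10.6, Cluster 8 -5.90. With 5 reads per gene they were Cone 20.1, RGC -22.6, Rod 13.6, RPE 13.6, ECM 2.59, Mitotic -12.3, Cluster 7 9.29, Cluster 8 -6.82. With reads as deposited they were Cone 45.7, RGC -34.6, Rod 33, RPE 40.1, ECM 13.1, Mitotic -28.4, Cluster 7 24.8. With cells thinned to 25000 reads they were Cone 28.2, RPE 21.3, Cluster 7 11.4. With at least 150000 reads and at most 10% mitochondrial reads the mitotic difference was -26.0. Within list carriers, a pseudocount of 10 CPM left 851 genes past 2-fold for Müller, 1722 for cone, 1315 for RGC, 2124 for ECM, 1863 for mitotic, 2027 for cluster 7 and 2207 for cluster 8. Apart from the settings' own construction, the cause was not tested.

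No paired analysis was possible because each day has 1 chip and its columns are numbered only by accession. For each named gene and TIMP1, the column whose removal shifted the difference most was looked at, so crossings by other columns are not listed. Leaving out that column moved 2-fold calls of CDT1 (-0.95), TNNT3 (0.64), TTN (0.54), ATP5A1 (0.97) and TIMP1 (-0.56) under the limit. It moved PRC1 (-1.14), TRIM71 (-1.23), LHX9 (1.13), PRPH (-1.29) and PDGFRA past it. Counts near the minimum of 10 CPM rest on few cells, and with 1 chip per day no setting separates age from chip.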

Other observations

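Genes of retinoid and thyroid hormone action, both of which were in the medium on both days, rose in 4 of 14 counted members and fell in 1. For this list and those below, the shares of all counted genes were 8.76% that rose and 6.15% that fell. KLF9, a factor induced by thyroid hormone, rose from 10.8 to 54.1 CPM, ALDH1A1, which makes retinoic acid, from 6.03 to 28.9 CPM, and HR from 5.02 to 17.2 CPM, while CYP26A1, which degrades retinoic acid, differed by -0.68 and the receptor THRA by 0.34. Among Wnt modulators 3 of 10 rose and SFRP2 fell, with the secreted antagonist WIF1 rising from 1.15 to 44.2 CPM and SFRP1 from 44.7 to 303 CPM, whereas the target AXIN2 differed by 0.62.

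Of 14 counted hypoxia genes 2 rose and 2 fell. CA9, a carbonic anhydrase induced in hypoxia, rose from 1.86 to 25.3 CPM and LDHA, lactate dehydrogenase, fell from 514 to 217 CPM, and VEGFA differed by -0.14. In the amino acid and ER stress list 4 of 13 rose and 1 fell. SLC7A11, the cystine transporter, rose from 12.8 to 69.7 CPM, and DDIT4, an inhibitor of mTOR signalling, fell from 32.3 to 3.47 CPM without overlap of columns. Among immediate early and heat shock genes 3 of 10 rose, FOS from 299 to 1099 CPM, and HSPB1 fell from 76.5 to 26.4 CPM. Cholesterol synthesis genes were within 2-fold in 12 of 13 counted members, with HMGCS1 lower (98.1 to 27.5 CPM), and nuclear genes of the respiratory chain in 15 of 16. Both counts are near the share of all counted genes, of which 14.9% were past 2-fold.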
